A study of Mus musculus with 8 samples.

Results

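Within each of the 8 brain leukocyte libraries, the cells fell into hashtag groups in which immediate-early genes were either high or low, and the groups of each kind were compared in their cell types and in their other genes. A hashtag is an antibody carrying a sequence tag that labels the cells of a sample before samples are pooled. Cells with at least 500 gene unique molecular identifiers (UMIs, which mark single captured transcripts), at least 200 genes, at most 5% mitochondrial UMIs and a leading hashtag of at least 50 counts that was at least 3 times the next were assigned to it. T cells, taken as cells with a UMI of both Cd3e and Cd3d, were summed per library and hashtag. A group with at least 2500 counts per 1000000 (CPM) in the AP-1 genes Fos, Fosb, Jun and Junb, the transcription factors Egr1 and Nr4a1, and Ier2, Btg2, Dusp1 and Zfp36 together was called high and any other group low. The groups were therefore selected on these 10 genes in T cells, and nothing measured in T cells was tested. This gave 16 high groups with 30014 cells and 13 low groups with 16269 cells, together 46283 of the 51120 cells that passed the limits on UMIs, genes and mitochondrial share. A further group of 31 cells, hashtag 4 of WT chronic colitis, was too small and was left out, and 4385 cells with several hashtags and 421 with no clear hashtag were not assigned.

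CD45.2+ cells were sorted from the brain of WT (C57BL/6J) mice and of App NL-G-F mice, a knock-in line that makes humanized amyloid-β with the Swedish, Arctic and Iberian mutations from the mouse's own App gene. The mice were 16 weeks old according to the sample labels, whereas the methods text gives a younger age. Each genotype was untreated (control), given 2% dextran sulfate sodium (DSS) in the drinking water for 7 days (acute colitis), given 3 cycles of 2% DSS of 5 days each, alternating with water (chronic colitis), or sensitized and fed with ovalbumin (food allergy). The mice had received an intravenous CD45 antibody that marks blood cells, and the count matrices hold no reading of it. Each condition was 1 library, and the sources used here do not say which mouse or handling step a hashtag marked, so every p-value below measures the spread between hashtag groups or between libraries only. Immediate-early genes are switched on by signalling that is already in place, without new protein synthesis, and their products are mostly transcription factors (Fos, Jun, Egr and Nr4a families) or proteins that end the signal, such as the phosphatase Dusp1 and the mRNA-decay factor Zfp36. They respond to antigen receptors, cytokines, growth factors and stress alike. In leukocytes they precede the early cytokine and chemokine genes, many of which are under NF-κB.

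In T cells, the summed level of the 10 genes ran from 3323 to 6307 CPM (median 4158) in the high groups and from 783 to 1939 CPM (median 1032) in the low groups. The high group nearest to the limit was hashtag 5 of App acute colitis, at 3323 CPM, and the low group nearest to it was hashtag 7 of WT acute colitis, at 1939 CPM in only 28 T cells. Hashtags 4 and 5 always lay on one side and 6 and 7 on the other. The high groups carried hashtags 6 and 7 in both control and both chronic colitis libraries, and hashtags 4 and 5 in both acute colitis and both food allergy libraries. The sets thus do not follow a genotype, and every library held both. In cells other than T cells, which the rule did not read, the same 10 genes came to between 3790.3 and 10744 CPM in the high groups and between 674 and 1891 CPM in the low groups, with no overlap. By cell class, the level of the 10 genes in ILC2 was 10756 to 23284 CPM (median 15344) in the high groups against 913 to 4373 CPM (median 2235) in the low groups. NK cells gave 2744 to 6550.2 CPM (median 3931) against 688 to 1319.6 CPM (median 829.6), and neutrophils 4481 to 16114 CPM (median 9279) against 802 to 1832 CPM (median 1257). B cells gave 2465 to 4762 CPM (median 3104) against 1048 to 2604 CPM (median 1351), the only one of these 4 classes in which the groups overlapped. Because these are the genes of the rule, no test result is given for them.

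**Figure D1:**
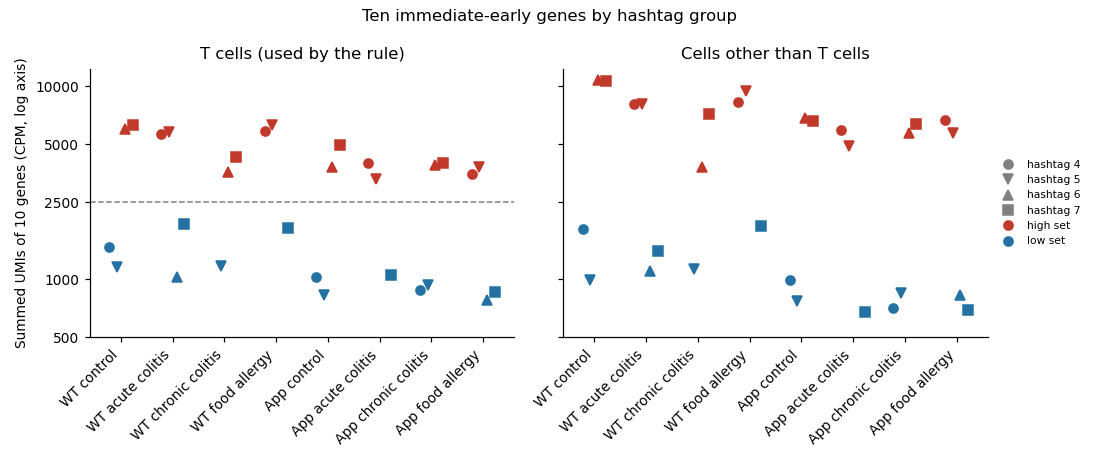
Summed UMIs of the 10 immediate-early genes per hashtag group, in CPM on a log axis, by library, in T cells (left, with the limit of 2500 CPM dashed) and in all other cells (right). Symbols give the hashtag and colours the set. T cells of the high groups lie at 3323 CPM or above, those of the low groups at 1939 CPM or below, and in the other cells no low group reaches the lowest high group at 3790.3 CPM.

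The libraries held 4479 to 6747 assigned cells each, with 23358325 to 46626411 gene UMIs in them and a median of 2647 to 3968 UMIs per cell. Groups held from 54 to 3340 cells, and the smallest were the low groups of WT acute colitis, with 108 and 54 cells. A total of 1246 cell barcodes occurred in 2 libraries and 32 in 3 libraries. Outside T cells, the median UMI count per cell averaged 3484 in the high and 3824 in the low groups (exact sign-flip permutation test over 8 libraries, p = 0.867). Ribosomal protein genes took 18.6% ± 1.82 of UMIs in the high and 21.6% ± 2.85 in the low groups, and haemoglobin genes 0.0279% ± 0.0280 and 0.157% ± 0.167 (SD, n = 8; exact p = 0.0312 and adjusted p = 0.0781 for each). Their part in the differences below was not tested. P2ry12, a defining gene of microglia, had a UMI in 1.66% of cells in the high and 1.24% in the low groups, and no cluster carried the microglia markers.

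The make-up of the cells differed between the sets. Type 1 conventional dendritic cells (cDC1), mast cells and fibroblasts took a larger share of the high groups in 8 of 8 libraries. Macrophages, plasma cells and a cluster that the markers left unnamed took a larger share in 7 of 8, while NK cells and basophils took a smaller share in 7 of 8. Of the 15 classes compared, these 8 passed an exact two-sided sign-flip permutation test over the paired libraries after Benjamini-Hochberg adjustment, where the smallest unadjusted p that 8 libraries allow is 0.0078. Each of the 8 missed the threshold in 6 to 8 of the 8 tests that left out a library (exact adjusted p = 0.059 to 0.088), and 7 libraries allow no exact p under 0.016. Plasma cells and NK cells also missed it with each cell assigned by its own markers (exact adjusted p = 0.076 and 0.066), and plasma cells, NK cells and macrophages in groups of at least 200 cells (exact adjusted p = 0.088, 0.088 and 0.078). Over cells other than T cells, plasma cells (exact adjusted p = 0.067) and the unnamed cluster (exact adjusted p = 0.16) missed it. Since shares add up to the whole, a class can differ because others do, and fewer cells of a type cannot be told apart from more of the rest.

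Cells of the cDC1 cluster, with Naaa, Clec9a and Xcr1 among its leading genes, belong to the dendritic cells that present antigen to CD8 T cells. Their share was 3.02% to 7.40% in the 16 high groups (median 5.80%) and 0% to 1.85% in the 13 low groups (median 0.349%), so that the highest low group lay below the lowest high group. The mean share was 5.43% ± 1.13 (SD, n = 8 libraries) in the high and 0.426% ± 0.283 in the low groups (exact adjusted p = 0.039). By library, the difference ran from 3.20 percentage points in WT control to 6.37 in App chronic colitis. Only 53 cDC1 were found in all the low groups against 1590 in the high groups.

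Mast cells, tissue-resident granulocytes with the proteases Mcpt4, Cma1 and Tpsb2, made up 0.362% to 1.58% (median 0.788%) of the high groups and 0% to 0.217% (median 0.0582%) of the low groups, again without overlap (exact adjusted p = 0.039). The low groups held 11 mast cells in all, and 5 of 13 held none. At 3 counts, these 5 allow shares of up to 0.146% in the largest and 5.56% in the smallest, so the smallest could not show a share like that of the high groups. Fibroblasts, led by Dcn, Lum and Col1a1, are not leukocytes and passed into a CD45.2 sort in small numbers. In the high groups they were 294 of 30014 cells, 0.980%, exact 95% interval 0.871% to 1.10%, and in the low groups 5 of 16269 cells, 0.0307%, exact 95% interval 0.00998% to 0.0717%. Per library, the mean fibroblast share was 0.933% and 0.0719% (exact adjusted p = 0.039). It was 0 in 9 of 13 low groups, which at 3 counts allows a share of up to 0.139% in the largest and 5.56% in the smallest of these groups. These intervals and limits cover counting error only.

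Macrophages carried C1qa, C1qb, Mrc1 and Pf4, genes of the macrophages that line the brain's borders, and their share was 5.95% ± 3.40 (SD, n = 8 libraries) in the high and 1.04% ± 0.433 in the low groups (exact adjusted p = 0.044). The largest differences were 10.3 and 10.1 percentage points, in the acute colitis libraries of both genotypes. WT chronic colitis was the exception, with a difference of -0.0663 points. The unnamed cluster was led by Saa3, Ms4a4a, Sirpb1c and Vcan, and of its 1394 cells 1191 were assigned to monocytes when each cell was classed by its own marker UMIs. It took 4.42% ± 2.56 (SD, n = 8 libraries) in the high and 0.838% ± 1.19 in the low groups (exact adjusted p = 0.044), with 1 low group of 54 cells, in WT acute colitis, at 7.41%. WT acute colitis was the library in which the difference was negative, at -1.47 points. Plasma cells, the antibody-secreting cells led by Jchain and Igha, took 3.22% ± 1.32 (SD, n = 8 libraries) in the high and 0.728% ± 0.761 in the low groups (exact adjusted p = 0.044), and WT control was the library in which they were fewer in the high groups, by a difference of -1.40 points.

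NK cells, cytotoxic lymphocytes with Ncr1 and Klrb1c, were 5.38% ± 1.58 (SD, n = 8 libraries) in the high and 9.29% ± 2.38 in the low groups (exact adjusted p = 0.044), with WT control as the exception at 0.952 points. Basophils, blood granulocytes marked here by Mcpt8 and Prss34, were 0.210% ± 0.124 (SD, n = 8 libraries) in the high and 1.16% ± 0.525 in the low groups (exact adjusted p = 0.044). Basophils and mast cells share the high-affinity IgE receptor, yet their shares differed in opposite directions between the sets. In WT acute colitis no basophil was found in the low groups, whose 108 and 54 cells allow shares of up to 2.78% and 5.56%. The haemoglobin UMIs given above were also lower in the high groups, in 6 of 8 libraries, while erythroid cells themselves averaged 1.53% against 3.08% (exact adjusted p = 0.2).

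**Figure D2:**
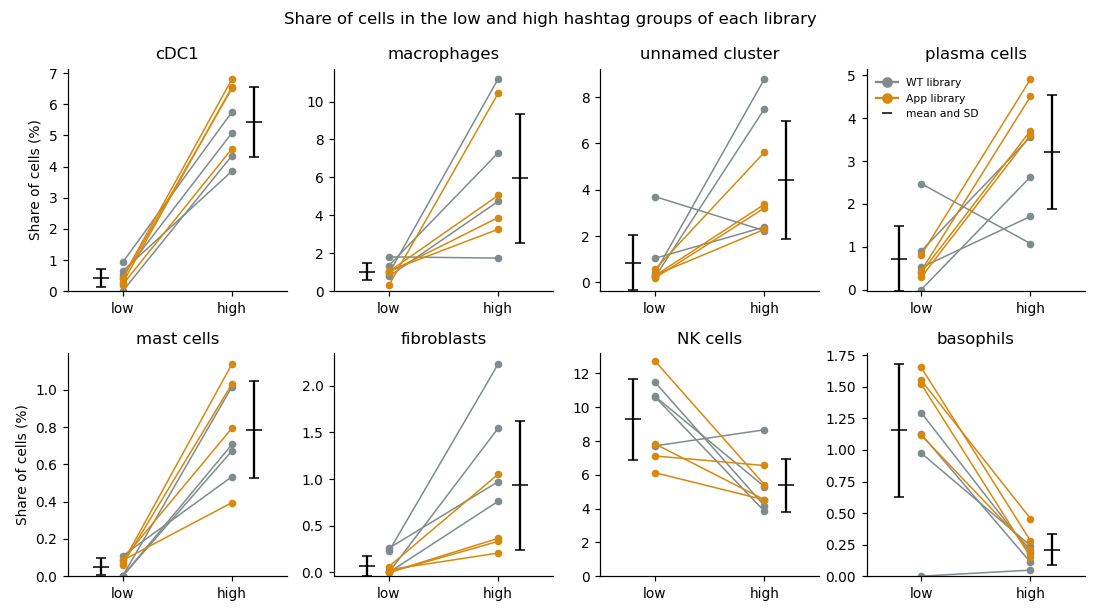
Share of cells, in percent, in the low and high hashtag groups of each library, for the 8 classes that passed the test. Each line joins the mean over the low and over the high groups of a library, grey for WT and orange for App, and the bars give the mean and SD over 8 libraries. The cDC1 lines all rise, from a mean of 0.426% to 5.43%.

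The other 7 classes did not pass. B cells averaged 17.7% and 10.9% (exact adjusted p = 0.18), with differences of 13.8 to 18.2 percentage points in the colitis libraries of both genotypes but -4.48 to 1.84 in the control and food allergy libraries. Developing B cells, with Rag1, Vpreb3 and Igll1, were split between the same libraries. Their differences were -24.4 to -9.78 points in the control and food allergy libraries and 0.578 to 8.31 in the colitis libraries (exact adjusted p = 0.21 over all 8). ILC2, which make type 2 cytokines and amphiregulin, averaged 12.5% and 7.11% and were more frequent in the high groups of 6 of 8 libraries (exact adjusted p = 0.14). Neutrophils averaged 8.63% and 6.45% (exact adjusted p = 0.64), their precursors 4.88% and 4.58% (exact adjusted p = 0.88), and the remaining dendritic cells 5.14% and 3.59% (exact adjusted p = 0.5). T cells, described without a test, took 17.9% ± 6.25 of the high and 38.1% ± 12.7 of the low groups and were fewer in the high groups of all 8 libraries. No class passed a test for a difference between the genotypes. With 4 App and 4 WT libraries, the smallest p that the test allows is 0.0286, and only plasma cells reached it. Their high groups exceeded the low by 3.70 points in App and 1.27 in WT libraries (exact permutation of genotypes, adjusted p = 0.321 over 15 classes). By library, the plasma cell differences were 3.32 to 4.10 points in App and -1.40 to 2.66 in WT, without overlap. At that smallest p, 1 class alone cannot pass the adjustment over 15 classes, so the test could not decide on plasma cells.

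Genes were then compared within a cell class, on UMIs summed per hashtag group, with the library as a term. Cells passing the T cell gate were left out of these sums, and the 10 genes of the rule were left out of the counts. B cells, ILC2 and NK cells could each be fitted with 14 high and 11 low groups of 7 libraries (without WT chronic colitis for B cells and without WT acute colitis for the others), and neutrophils with 8 high and 7 low groups of the 4 App libraries. For App chronic colitis the study counts fewer mice than there are hashtag groups in that library, so some of its groups may share an animal and the p-values of these fits may be too small. Macrophages and cDC1 could not be fitted, with only 91 and 52 such cells in all the low groups. At an edgeR adjusted p under 0.05 and a fold of at least 2, neutrophils had 165 genes higher in the high groups (4.21% of 3917 tested) and 16 lower (0.408%). ILC2 had 68 higher (1.25% of 5451) and 16 lower (0.294%). NK cells had 37 higher (0.823% of 4494) and 14 lower (0.312%), and B cells 24 higher (0.384% of 6242) and 8 lower (0.128%). The median log2 fold change over all genes lay between -0.02 and 0.002 in the 4 classes. Hashtag 7 of App acute colitis held 59.2% of all low neutrophils, and without that library the neutrophil counts became 210 higher and 45 lower. Without App chronic colitis, the counts higher and lower were 23 and 8 in B cells, 69 and 20 in ILC2, 42 and 17 in NK cells and 133 and 19 in neutrophils.

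Beyond the genes of the rule, 15 genes were higher in at least 3 of the 4 classes, not all of them tested in every class. Of the 2728 genes tested in every class, 4 were higher in all 4 (0.147%), namely Ppp1r15a, Dusp5, Cd69 and Cebpb. No gene was lower in more than 2 classes. Ppp1r15a (chr7:45522916-45526268, minus strand, GRCm38) encodes GADD34, which directs a phosphatase to eIF2α and restores translation after stress. Its level in ILC2 ranged from 292 to 800.3 CPM (median 481) in the high groups and from 7.73 to 147 CPM (median 52.7) in the low groups, without overlap (log2 fold change 3.18, SE 0.21, edgeR adjusted p = 2.3e-09). In NK cells the log2 fold change of Ppp1r15a was 2.46, in B cells 1.97 and in neutrophils 6.43, where 4 of the 7 low groups had no UMI and the size of the fold rests on the fitting. Dusp5 (chr19:53529109-53542431, plus strand), a nuclear phosphatase of ERK, ranged in NK cells from 153 to 386 CPM (median 211) in the high groups and from 13.9 to 78.1 CPM (median 58.0) in the low groups (log2 fold change 2.01, SE 0.18, edgeR adjusted p = 1.3e-08). Its groups did not overlap in any of the 4 classes, with log2 fold changes of 1.85 in B cells, 2.22 in ILC2 and 5.15 in neutrophils, where 3 of the 7 low groups had no UMI. Cd69 (chr6:129267325-129275436, minus strand), an early surface receptor that opposes S1pr1 and so the exit of lymphocytes from tissue, was higher by 1.62 in B cells, 1.86 in ILC2, 1.01 in NK cells and 4.67 in neutrophils, all on the log2 scale. The Cd69 levels of the high and low groups overlapped in B cells, NK cells and neutrophils, but not in ILC2. In neutrophils 4 of the 7 low groups had no Cd69 UMI, so the size of that fold rests on the fitting. Cebpb (chr2:167688915-167690418, plus strand), a transcription factor of inflammatory and myeloid genes, had log2 fold changes from 1.53 in B cells to 1.98 in NK cells. Its groups did not overlap in NK cells and neutrophils but did in B cells and ILC2. In ILC2 it ranged from 497 to 2181 CPM in the high and from 75.8 to 2233 CPM in the low groups, so that 1 low group exceeded every high group. The call of Cebpb was lost in ILC2 under 7 alternatives (edgeR adjusted p up to 0.12) and in B cells without App control (edgeR adjusted p = 0.11).

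The genes called in 3 classes, picked out after the values were seen, were the nuclear receptor Nr4a3, the NF-κB regulators Tnfaip3 and Nfkbiz, the G-protein regulators Rgs1 and Rgs2, the small GTPase Rhob, the chaperone cofactor Dnajb9, and Phlda1, Hilpda, Nabp1 and Coq10b. Tnfaip3, which ends NF-κB signalling, had log2 fold changes of 1.99 in ILC2, 2.31 in NK cells and 3.72 in neutrophils, and 0.74 in B cells, where it did not pass (edgeR adjusted p = 0.1). Rgs2 passed in B cells, ILC2 and NK cells but not in neutrophils (log2 fold change 1.27, SE 0.44, edgeR adjusted p = 0.081).

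**Figure D3:**
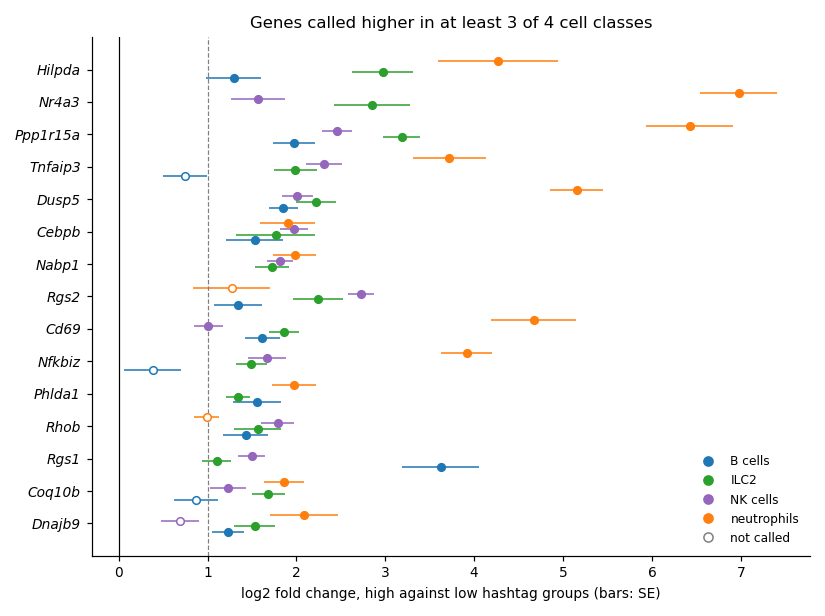
Log2 fold change of the high against the low hashtag groups, with its SE, for the 15 genes called higher in at least 3 of 4 cell classes (colours). Open points did not pass, and the dashed line marks a fold of 2. Ppp1r15a, Dusp5, Cd69 and Cebpb have 4 filled points each, and the neutrophil points of Nr4a3, Ppp1r15a and Dusp5 lie farthest to the right, at 6.98, 6.43 and 5.15. These 3 genes had no UMI in 6, 4 and 3 of the 7 low neutrophil groups, so the size of these folds rests on the fitting.

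The promoters of the genes that rose in all 4 classes are shown because these genes moved together in unlike cells. RefSeq promoters (GRCm38.p6) were matched for 3 of the 4 genes. The 250 bases before the RefSeq start are printed 5′ to 3′ on the gene's strand, and capitals mark the 5 bases TGACG, the core of the cAMP response element (CRE), or their reverse complement CGTCA, and the serum response element (SRE), to which serum response factor binds.

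Ppp1r15a (chr7:45526269-45526518, minus strand): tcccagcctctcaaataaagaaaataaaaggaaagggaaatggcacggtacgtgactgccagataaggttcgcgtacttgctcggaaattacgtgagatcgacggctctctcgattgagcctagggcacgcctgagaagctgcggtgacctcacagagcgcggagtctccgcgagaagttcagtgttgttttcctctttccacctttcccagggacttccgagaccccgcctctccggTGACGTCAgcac
Dusp5 (chr19:53528895-53529144, plus strand): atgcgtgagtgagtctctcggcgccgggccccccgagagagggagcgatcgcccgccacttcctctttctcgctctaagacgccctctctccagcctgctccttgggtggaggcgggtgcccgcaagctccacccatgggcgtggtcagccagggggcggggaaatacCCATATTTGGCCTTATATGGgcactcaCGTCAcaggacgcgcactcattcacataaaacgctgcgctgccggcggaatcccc
Cebpb (chr2:167688665-167688914, plus strand): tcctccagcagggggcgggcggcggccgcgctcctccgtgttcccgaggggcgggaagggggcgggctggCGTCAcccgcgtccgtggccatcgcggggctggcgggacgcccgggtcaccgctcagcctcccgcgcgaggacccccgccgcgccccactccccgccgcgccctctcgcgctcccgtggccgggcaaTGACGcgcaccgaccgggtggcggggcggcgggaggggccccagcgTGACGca

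Ppp1r15a holds the whole CRE, TGACGTCA, which contains TGACG on both strands, close to its start. Dusp5 holds a pair of adjoining SREs and CGTCA, and Cebpb holds TGACG at 2 places and CGTCA at 1. On either strand, TGACG stood in 10 of the 11 matched promoters of the 15 genes called in at least 3 classes (90.9%) and in 20 of the 33 of the 43 genes called in at least 2 (60.6%). The share was 29.7% of the 5913 matched promoters of genes tested in any class and 17.9% of all 27025 promoters. By class, TGACG stood in 9 of the 15 matched promoters of genes higher in B cells (60.0%) and 24 of 53 in ILC2 (45.3%). It stood in 13 of 25 in NK cells (52.0%) and 67 of 127 in neutrophils (52.8%). The whole CRE stood in 3 of the 33 promoters (9.09%, against 2.94% of tested genes), the AP-1 site TGANTCA in 1 of 33 (3.03% against 4.06%), the SRE in 1 (3.03% against 1.15%) and the NF-κB site in 7 (21.2% against 8.73%). These are counts of letters in a window, and no test was made of them.

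ILC2 had the most called genes of the lymphoid classes, among them cytokines, chemokines and regulators of NF-κB. Amphiregulin (Areg), an EGF-family growth factor of type 2 immunity and tissue repair, ranged from 413 to 1354 CPM (median 757) in the high groups and from 10.8 to 309 CPM (median 41.9) in the low groups, with every high group above every low group (log2 fold change 3.35, SE 0.31, edgeR adjusted p = 7.2e-07). Areg was also a marker of the class and was not used to cluster it. Cxcl2, a chemokine that attracts neutrophils, ranged from 133 to 891 CPM (median 228) in the high groups and from 0 to 18.3 CPM (median 0) in the low groups (log2 fold change 6.82, SE 0.54, edgeR adjusted p = 7.0e-08). In 7 of the 11 low groups no Cxcl2 UMI was found, so its fold depends on the fitting more than its level does. Csf2, the cytokine GM-CSF, ranged from 57.7 to 352 CPM (median 129) in the high groups and from 0 to 109.9 CPM (median 20.9) in the low groups, and these overlapped (log2 fold change 2.43, SE 0.45, edgeR adjusted p = 0.0018). Il13, the type 2 cytokine, had a log2 fold change of 1.74 and did not pass (edgeR adjusted p = 0.19).

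Among further transcription factors, Nr4a2 in ILC2 ranged from 133 to 307 CPM (median 197) in the high groups and from 0 to 34.4 CPM (median 5.02) in the low groups (log2 fold change 4.42, SE 0.30, edgeR adjusted p = 3.5e-10). Gadd45b, a stress sensor upstream of p38, was higher by 4.48 on the log2 scale and Ccrl2, a non-signalling chemokine receptor, by 3.90, both without overlap. The NF-κB regulators Nfkbid, Tnfaip3, Nfkbiz and Nfkbia were higher by 2.55, 1.99, 1.49 and 1.28. Ddx5, an RNA helicase with very high levels, ranged from 1751 to 2448 CPM (median 2021) in the high groups and from 875 to 1239.9 CPM (median 974) in the low groups, without overlap (edgeR adjusted p = 1.5e-16).

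Fewer genes were lower in ILC2. Socs1, which blocks signalling of cytokine receptors through JAK kinases, ranged from 127 to 452 CPM (median 224) in the high groups and from 467 to 1033 CPM (median 881) in the low groups (log2 fold change -1.84, SE 0.18, edgeR adjusted p = 7.8e-07). The lowest low group still lay above the highest high group. Snhg20, a small nucleolar RNA host gene, had log2 fold changes of -1.72 in ILC2 and -1.47 in B cells. C1qtnf12, Hist1h1d and the growth regulator Myc fell as well, at -1.47, -1.43 and -1.10, and Ddit4, an inhibitor of mTOR, at -1.23 (0.0057 as edgeR adjusted p). Markers of T cells in the ILC2 sums came to 395 to 712 CPM in the high and 441 to 1097 CPM in the low groups, with 2 of the 4 tested members called lower. Neutrophil markers came to 11.3 to 1155 CPM in the high and 20.6 to 382 CPM in the low groups, with 1 of the 2 tested members called higher. Macrophage markers came to 17.7 to 176 CPM (median 35.2) in the high and 0 to 32.9 CPM (median 3.85) in the low groups, with no member tested. The part of these markers in the result was not tested. In ILC2, the share of mitochondrial UMIs was lower in the high groups of 7 of 7 libraries (exact p = 0.016, the smallest they allow, and adjusted p = 0.21).

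NK cells differed in signalling genes, cytokines and granzymes. The regulator Rgs2 ranged from 87.2 to 216 CPM (median 149) in the high groups and from 11.6 to 33.1 CPM (median 21.3) in the low groups (log2 fold change 2.72, SE 0.15, edgeR adjusted p = 1.6e-21). Socs3, which limits signalling of IL-6-type cytokines, ranged from 84.6 to 189 CPM (median 138) in the high groups and from 0 to 55.6 CPM (median 18.6) in the low groups (log2 fold change 2.61, SE 0.18, edgeR adjusted p = 2.4e-15). Nr4a2, Ier5l, Fosl2 and Klf2 were higher by 2.87, 2.44, 1.98 and 1.64 on the log2 scale. Among effector genes, Ifng, the cytokine interferon-γ, ranged from 43.6 to 190.0 CPM (median 124) in the high groups and from 0 to 111 CPM (median 41.4) in the low groups (log2 fold change 1.48, SE 0.31, edgeR adjusted p = 0.0043). The chemokines Ccl3 and Ccl4 were higher by 1.35 and 1.44, and lost the call under 4 alternatives for Ccl3 (edgeR adjusted p up to 0.073) and 7 for Ccl4 (up to 0.15). Of the receptors of homing and egress, Cxcr4 and Cd69 were higher by 1.63 and 1.01. Macrophage markers in the NK cell sums came to 8.64 to 246 CPM (median 46.8) in the high and 6.47 to 74.6 CPM (median 16.5) in the low groups. Neutrophil markers there came to 9.77 to 3611 CPM (median 131) in the high and 8.49 to 2944 CPM (median 137) in the low groups. The part of these markers was not tested.

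Of the 3 granzymes tested in NK cells, Gzma, Gzmb and Gzmc, the last 2 were called lower in the high groups. Gzmb, a protease that triggers death of target cells, ranged from 224 to 648 CPM (median 356) in the high groups and from 599.8 to 2244 CPM (median 1132) in the low groups (log2 fold change -1.56, SE 0.21, edgeR adjusted p = 6.7e-05). It was lower in the high groups of 7 of 7 libraries, although the ranges overlapped slightly. Gzmc ranged from 24.9 to 794 CPM (median 268) in the high groups and from 122 to 1711 CPM (median 1051) in the low groups (log2 fold change -1.97, SE 0.44, edgeR adjusted p = 0.0085). Entpd1, the ectonucleotidase CD39, had a log2 fold change of -1.30 without overlap, and Tmem273 one of -1.59. Gzma, named after its values were seen, was higher in the high groups without reaching a fold of 2, and ranged from 1824 to 4205 CPM (median 2734) in the high groups and from 447 to 3979 CPM (median 1286) in the low groups (log2 fold change 0.90, SE 0.25, edgeR adjusted p = 0.029). The call of Gzmc was lost under 2 alternatives (edgeR adjusted p up to 0.062). The class held a Gzmc-led and a Gzma-led cluster, and their balance differed between the sets. The Gzmc-led cluster held 43.8% of the NK cells in the high and 69.0% in the low groups. Within the Gzmc-led cluster, Gzmb lay at 116 to 642 CPM in the high and at 647 to 1614 CPM in the low groups, without overlap. Within the Gzma-led cluster, Gzmb lay at 121 to 651 CPM and 178 to 1273 CPM, which overlapped. Gzmc, Entpd1 and Tmem273 overlapped within the Gzmc-led cluster, at 49.1 to 1785 CPM, 14.3 to 100.3 CPM and 23.0 to 154 CPM in the high against 310.1 to 1896 CPM, 72.2 to 160.3 CPM and 97.6 to 177 CPM in the low groups. Within the Gzma-led cluster they overlapped too, at 0 to 119 CPM, 0 to 35.1 CPM and 0 to 19.0 CPM against 0 to 371 CPM, 7.11 to 33.0 CPM and 0 to 25.3 CPM. Klf2 was mainly a gene of the Gzma-led cluster, at 308 to 938 CPM in the high and 138 to 729 CPM in the low groups, against 0 to 163 CPM and 0 to 98.9 CPM in the Gzmc-led cluster, and it overlapped in both. Socs3 in the Gzma-led cluster lay at 68.8 to 208 CPM in the high and 15.8 to 52.6 CPM in the low groups. In the Gzmc-led cluster Socs3 lay at 25.1 to 149.9 CPM and 0 to 35.5 CPM, which overlapped. These values cover the groups with at least 20 cells of a cluster, 6 of them low for the Gzma-led cluster. Values within clusters, here and for B cells, were chosen after the results were seen and carry no test. They are not scaled as the values of the whole class are, so the 2 should not be set against each other.

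B cells had the fewest genes past the limits. Rgs1, which dampens signalling of chemokine receptors, ranged from 41.9 to 183 CPM (median 93.6) in the high groups and from 0 to 22.9 CPM (median 0) in the low groups, without overlap (log2 fold change 3.62, SE 0.43, edgeR adjusted p = 3.1e-05), and 6 of the 11 low groups had no Rgs1 UMI. Klf4, a transcription factor that restrains proliferation, ranged from 18.7 to 60.3 CPM (median 28.2) in the high groups and from 0 to 12.3 CPM (median 5.46) in the low groups (log2 fold change 2.53, SE 0.28, edgeR adjusted p = 7.2e-08). Plk2, Dusp5, Cd69, Trib1 and Bhlhe40 were higher by 2.34, 1.85, 1.62, 1.55 and 1.39 on the log2 scale. Id3, an inhibitor of E proteins in B cells, fell. Its level ranged from 94.2 to 279 CPM (median 166) in the high groups and from 160.2 to 443 CPM (median 359) in the low groups (log2 fold change -1.10, SE 0.09, edgeR adjusted p = 2.9e-10). Clcf1, a cytokine that stimulates B cells, and H2-Eb2 had log2 fold changes of -1.65 and -1.02, and H2-Eb2 lost its call under 2 alternatives (edgeR adjusted p up to 0.082). The class held 4 clusters, of which the largest, led by Ms4a1 and Tnfrsf13c, held 64.0% of B cells in the high and 45.8% in the low groups, and a cluster led by Ighd and Bank1 held 28.6% and 47.7%. Macrophage markers in the B cell sums came to 55.3 to 641 CPM in the high and 273 to 895 CPM in the low groups, and the 1 member tested was not called. Id3 in the largest cluster lay at 130.5 to 269 CPM in the high and 342 to 642 CPM in the low groups, and in the Ighd-led cluster at 58.9 to 140.2 CPM and 212 to 319 CPM, with no overlap in either. H2-Eb2 in the largest cluster lay at 0 to 17.2 CPM and 0 to 43.4 CPM, and in the Ighd-led cluster at 32.7 to 151 CPM and 78.1 to 202 CPM, which overlapped.

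Neutrophils had the largest folds. Il1b, the inflammatory cytokine interleukin-1β, ranged from 691 to 3704 CPM (median 1482) in the high groups and from 0.538 to 150.2 CPM (median 85.5) in the low groups (log2 fold change 5.36, SE 0.90, edgeR adjusted p = 0.0027). Its 8 high groups all lay above its 7 low groups, and the lowest of all was hashtag 7 of App acute colitis, at 0.538 CPM. Cxcl2, which acts on neutrophils themselves, ranged from 793 to 4591 CPM (median 2413) in the high groups and from 3.44 to 107 CPM (median 22.3) in the low groups (log2 fold change 6.27, SE 0.50, edgeR adjusted p = 2.9e-06). Ccrl2 ranged from 44.3 to 224 CPM (median 107) in the high groups and from 0 to 4.17 CPM (median 0) in the low groups (log2 fold change 7.57, SE 0.47, edgeR adjusted p = 2.7e-09). Ptgs2, the inducible cyclooxygenase, the chemokine Ccl4 and the AP-1 member Fosl1 were higher by 6.76, 5.41 and 5.92 on the log2 scale. Where most low groups had no UMI of a gene, as for these 3 in 4 of 7 low groups, the fold depends on the fitting, and the level in the high groups is the better guide. Cdkn1a, an inhibitor of the cell cycle, reached at most 97.6 CPM in a high group.

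Among the genes lower in neutrophils, Hist1h1e, a linker histone, ranged from 23.6 to 69.6 CPM (median 49.7) in the high groups and from 100.2 to 259 CPM (median 174) in the low groups (log2 fold change -1.98, SE 0.26, edgeR adjusted p = 5.3e-05). F630028O10Rik and Hhex had log2 fold changes of -1.39 and -1.17, also without overlap. Neutrophils of the sets came from different clusters. A cluster led by G0s2 and Retnlg held 97.8% of them in the high and 37.8% in the low groups, and a cluster led by Olfm4 and Ltf, with 92.9% of its cells from App acute colitis, held 2.24% and 62.2%. Cxcl2, Il1b and Fosl1, given above as higher in the high groups, were also among the leading genes of the G0s2-led cluster. Levels within these clusters are not given, and the part of the cluster mix in the folds was not tested. Macrophage markers in the neutrophil sums came to 32.3 to 2127 CPM in the high and 8.22 to 26.3 CPM in the low groups, and Apoe, the only member tested, was called higher (log2 fold change 4.92, SE 1.13, edgeR adjusted p = 0.017). All 10 macrophage markers had UMIs in the high neutrophil sums and 9 of 10 in the low. Neutrophil precursor markers came to 45863 to 87541 CPM in the high and 37802 to 77829.6 CPM in the low groups, with 1 of the 5 tested members called higher. B cell markers came to 1.77 to 1533 CPM in the high and 0 to 146 CPM in the low groups, and the 1 member tested was not called. The part of these markers in the result was not tested.

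**Figure D4:**
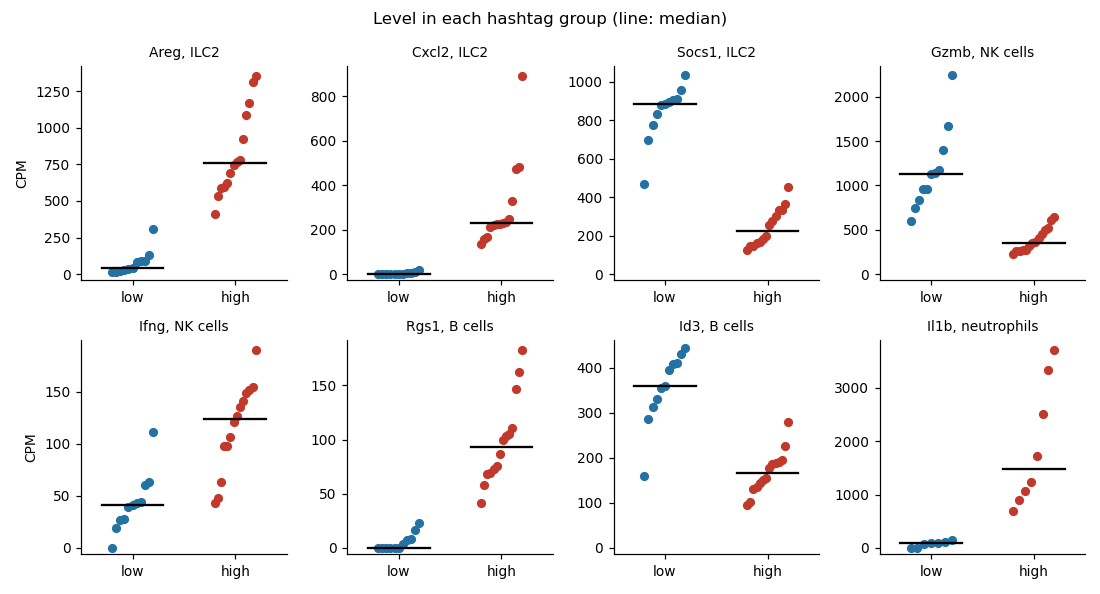
Level in CPM of 8 named genes in each hashtag group, low (blue) and high (red), with the median as a line. Areg, Cxcl2, Rgs1 and Il1b are higher in every high group than in any low group, Socs1 in ILC2 is lower in every high group, and the ranges of Gzmb, Ifng and Id3 overlap.

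Lists of related genes are given by pathway, as counts to be read against the shares of all genes called higher, which were 4.21% in neutrophils, 1.25% in ILC2, 0.823% in NK cells and 0.384% in B cells. The lists were drawn up with earlier results known, and their counts are descriptions. A gene could enter the tests by its level in 1 set alone, so the members tested were in part selected on the level compared. Examples are Ccl4 in neutrophils, with no UMI in 4 of 7 low groups, and Cxcl2 in ILC2, in 7 of 11. The same filter held for all genes tested. Of the further immediate-early transcription factors, 10 of 13 tested were higher in neutrophils (median log2 fold change 1.54), 6 of 14 in ILC2 (1.09), 5 of 10 in NK cells (0.97) and 2 of 11 in B cells (0.42). Among MAP kinase phosphatases and feedback inhibitors, 7 of 15 were higher in B cells, 7 of 12 in ILC2, 5 of 8 in NK cells and 5 of 12 in neutrophils, with medians of 0.87, 1.14, 1.64 and 1.13. This was the list with the most calls in B cells. None of its tested members was lower.

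NF-κB targets and feedback genes differed in 9 of 15 cases in neutrophils, 6 of 16 in ILC2, 2 of 16 in NK cells and 0 of 17 in B cells, where 5 members passed the adjusted p in edgeR but none the fold of 2. Early cytokines and chemokines were mostly too low to test in lymphocytes. Those tested were higher in 6 of 7 cases in neutrophils (median 5.36), 3 of 5 in ILC2 (2.43), 3 of 5 in NK cells (1.35) and 0 of 1 in B cells.

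The counts for other pathways of stress and cell state follow. Heat-shock chaperones passed in 2 of 6 cases in neutrophils, with Hsp90aa1 at 1.34 and Dnajb1 at 1.20, and in 0 of 9, 0 of 9 and 0 of 9 in B cells, ILC2 and NK cells. The unfolded protein and integrated stress response gave 3 of 8 in neutrophils, namely Atf4, Dnajb9 and Hspa5 at 2.07, 2.09 and 1.54, then 1 of 9 in B cells, 1 of 7 in ILC2, which was Dnajb9 in each, and 0 of 8 in NK cells. The call of Hspa5 in neutrophils was lost under 3 alternatives. No member of hypoxia and glycolysis (7 to 11 tested per class) or of the type I interferon-stimulated genes (5 to 8 tested) passed both limits in any of the 4 classes, in edgeR or DESeq2. Wherever a list had no call in a class, 0 to 7 members had an unadjusted edgeR p under 0.05 and DESeq2 called none. Glucocorticoid receptor targets gave Per1 and Cxcr4 higher in NK cells (2 of 8), Per1 higher in neutrophils (1 of 7, at 1.73) and Ddit4 lower in ILC2, with none called in B cells. Protein synthesis regulators gave Odc1 and Eif4a1 higher in neutrophils (2 of 11) and Myc lower in ILC2. Nuclear-retained and splicing-related RNA gave Srsf5 and Nktr higher in neutrophils (2 of 12) and Ddx5 in ILC2 (1 of 13). The neutrophil calls of Odc1 and Nktr were each lost under 1 alternative. Of the homing and egress receptors, only Cd69 was higher in B cells, ILC2 and neutrophils, of 12, 8 and 8 tested.

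**Figure D5:**
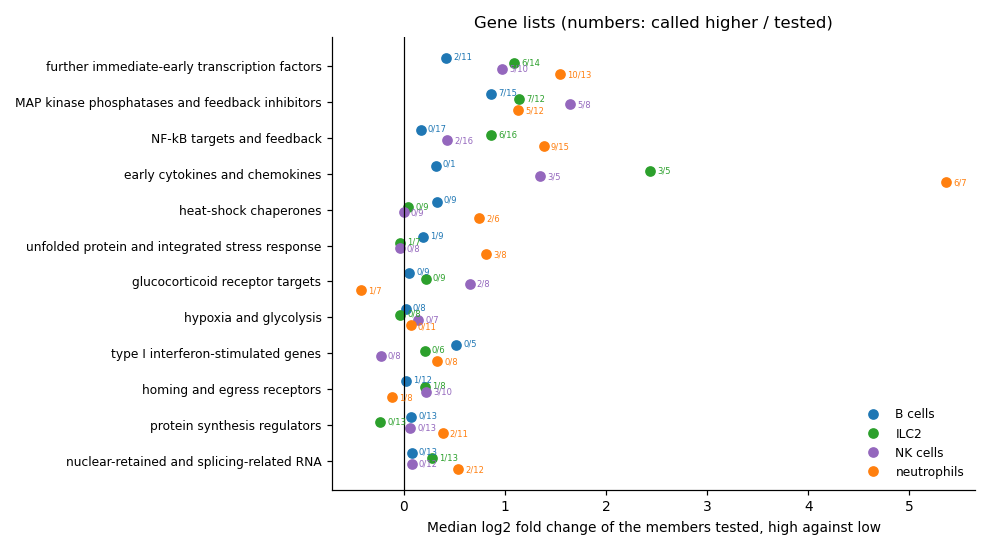
Median log2 fold change of the tested members of each gene list, high against low hashtag groups, by cell class, with the number called higher over the number tested beside each point. Early cytokines and chemokines in neutrophils lie farthest to the right, at 5.36, and the hypoxia and glycolysis medians lie between -0.04 and 0.14.

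In T cells, whose 10 rule genes chose the sets, the named genes are given as levels only. The T cells of the sets were spread unevenly over their clusters. A cluster led by Cd8a, Cd8b1 and Gzmk held 20.4% of them in the high and 49.5% in the low groups, and a cluster led by Trdv4, Cd163l1, Tcrg-V6 and Il17a held 24.4% and 5.31%, so the levels below are of unlike mixtures of T cells. Ppp1r15a lay at 68.7 to 239.9 CPM in the high and 17.1 to 50.8 CPM in the low groups, without overlap. Rgs2 lay at 67.1 to 154 CPM in the high and 7.14 to 31.0 CPM in the low groups, and Areg at 22.9 to 147 CPM in the high and 0 to 15.2 CPM in the low groups, neither with overlap. Snhg20 was the reverse, at 11.6 to 27.8 CPM in the high and 46.3 to 67.7 CPM in the low groups. Hspa5 and Dnajb9 also separated the groups, while Dusp5 lay at 49.9 to 219.8 CPM in the high and 21.5 to 67.2 CPM in the low groups, Tnfaip3 at 112 to 386 CPM in the high and 38.4 to 194 CPM in the low groups and Socs1 at 94.6 to 167 CPM in the high and 139.6 to 525 CPM in the low groups, all with overlap. Gzmb in T cells overlapped too, at 31.5 to 139 CPM in the high and 50.8 to 199 CPM in the low groups.

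A difference between the genotypes in the effect of the set was tested in B cells. No gene of 6251, those of the rule among them, passed, with 0 called by edgeR at an adjusted p under 0.05, while 549 genes (8.78%) had an unadjusted p under 0.05. The smallest adjusted p was 0.076.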

How the data were processed

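Droplet 5′ single-cell RNA sequencing of brain CD45.2+ cells was analysed from 8 libraries, 1 per condition. The authors made the deposited matrices of raw UMI counts, unfiltered, with Cell Ranger on mm10. The submitters' processing notes and the paper name version 6.1.2, and the matrix headers name Cell Ranger 4. Hashtag counts are in the same matrices. Depth was 2647 to 3968 median UMIs per assigned cell. The hashtag groups, the 10 genes, the gene lists and the tests were chosen with earlier results of these data known. The limit of 2500 CPM was taken as given.

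Cells were normalized, log-transformed and clustered (scanpy for 2000 variable genes without the 10 genes, the gene lists, receptor segments, mitochondrial and sex-linked genes; 30 principal components, 20 neighbours, Leiden resolution 0.5). Clusters were named from marker lists, each name standing for cells like the type. No doublets were removed beyond the hashtag rule, and 1225 cells (2.64%) held UMIs of 2 or more of Cd3e, Cd79a and Csf1r. Shares were compared by exact two-sided sign-flip permutation tests over libraries, adjusted by Benjamini-Hochberg over 15 classes. UMIs summed per hashtag group with at least 20 cells of a class were tested with edgeR 4.0.16 (quasi-likelihood, TMM, filterByExpr, library as a term; DESeq2 1.42.0 as an alternative), called at an adjusted p under 0.05 and a fold of at least 2. CPM of single genes in the 4 fitted classes are edgeR's, per 1000000 UMIs of the genes tested and after TMM scaling. CPM in T cells, of marker lists, of the 10 genes together and within clusters are per 1000000 of all summed UMIs. The 2 kinds are not on the same scale. In simulated counts with 100 genes changed by 1.5 and 100 by 3 on the log2 scale, the 4 fits, on 3753 to 6116 genes, recovered 93 to 100 and 96 to 99 of them, with 0 to 4 false calls. Genes were named by a rule: per class the 5 called genes with the largest and the 5 with the smallest fold among those at 50 CPM or more with the same sign in every library, up to 10 genes in each direction called in at least 4 classes, and at most 4 called members per list and class. Il13, Gzma, Apoe, members below the largest 4 and the genes called in 3 classes were named after their values were seen. Immunoglobulin and T cell receptor segments, the 10 genes and sex-linked genes were not named. Genes overlapping another gene were not treated apart. Promoters are RefSeq's, 1 per gene, and gene positions GENCODE vM21. Alternatives covered clustering, denominators, hashtag ratio, group size, UMI minimum, doublets, pairing, filters, normalization, the library term and leaving out each library. Receptor sequences from the same cells were not used here, and 1 called gene is not reported here. Python 3.11.15 (scipy 1.17.1, leidenalg 0.10.2) and R 4.3.3 were used.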

Additional observations from a re-analysis of the deposited data

Results flagged for a closer look

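Over the 15 classes, the difference in share between the high and low hashtag groups was examined for a library far from the other 7, and 3 classes had such a library. Chance flags about 1 in 20 groups. The neutrophil share in App acute colitis was -23.8 percentage points (high minus low), against 0.219 to 16.3 in the other 7 libraries. In that library hashtag 7, its only low group, held most of the cluster led by Olfm4 and Ltf. The share of dendritic cells other than cDC1 in WT food allergy was 11.5 points, against -2.53 to 2.69 elsewhere. A cluster led by Fscn1 and Ccr7 belonged to this class, and 66.9% of its 595 cells came from WT food allergy. The basophil share in WT acute colitis was 0.0476 points, against -1.37 to -0.734 elsewhere, and its low groups of 108 and 54 cells held no basophil.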

How the results depend on the processing

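Differences in share, in percentage points, were recomputed under the alternatives. No paired analysis by replicate number was possible because each condition was 1 library, and the libraries themselves were the pairs. With each library left out in turn, 7 libraries allow an exact p of no less than 0.016, and the highest adjusted p of the 8 classes that had passed was then 0.078 to 0.088. The differences ran from 4.81 to 5.26 for cDC1, 0.686 to 0.795 for mast cells, 0.698 to 0.959 for fibroblasts, 4.15 to 5.63 for macrophages, 2.26 to 3.04 for plasma cells, 2.90 to 4.30 for the unnamed cluster, -4.60 to -3.42 for NK cells, -1.09 to -0.884 for basophils and -0.438 to 1.32 for neutrophil precursors. With each cell assigned by its own markers, plasma cells (1.96) and NK cells (-3.85) no longer passed, and the other dendritic cells reversed to -0.862. Over cells other than T cells, plasma cells (2.73) and the unnamed cluster (3.60) no longer passed, and neutrophil precursors reversed to -1.57, as they did at a hashtag ratio of 5 (-0.0590). In groups of at least 200 cells, plasma cells (2.47), NK cells (-3.70) and macrophages (4.15) no longer passed. Without the pairing, developing B cells (-8.20) and ILC2 (5.76) passed. The cause was not tested. The genotype differences kept their side of the threshold in all 30 recomputed values.

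Without a filter on low counts, the calls higher and lower were 79 and 48 in B cells, 172 and 61 in ILC2, 125 and 75 in NK cells and 502 and 53 in neutrophils. With each cell assigned by its own markers, B cells had 57 and 36, and NK cells 22 lower. With libraries left out in turn, the calls lower were 10 to 23 in NK cells and 12 to 45 in neutrophils, the highest without App acute colitis in each. Of 1397 recomputed values of named genes, 1364 kept their side of the adjusted p, 33 lost it and 0 reversed.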
